A study of Mus musculus with 3 samples.

Results

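Cell division in the long bone of juvenile mice was examined through 36 cell-cycle genes, a list of 15 genes of S phase (DNA synthesis) and 21 genes of G2/M phase (preparation for mitosis and mitosis), which were taken by symbol from the 55422 genes counted. All 36 were found in the feature lists, all are annotated as protein-coding (GRCm38; *Mki67*, for example, at chr7:135689784-135716361 and *Mcm4* at chr16:15623897-15637400, both on the minus strand), and all 36 passed the filter on low counts. Single cells were captured in Chromium droplets from untreated C57BL/6 mice at 3 weeks of age. The metaphyseal group comprised 2 libraries, in which the metaphysis of C57BL/6J males was dissected and depleted of cells with lineage antigens, CD45 and CD117. The *Pdgfra-GFP* group was 1 library of GFP+ cells sorted from the metaphysis-epiphysis region of femur and tibia, from males heterozygous for *Pdgfra-H2B-GFP*. This knock-in places a nuclear GFP under the control of *Pdgfra*, so that a cell is caught by present or recent activity of that gene. The number of animals per library is not given in the sources used here. With differences between libraries taken out, p-values therefore measure how far differences between cell groups vary over these libraries, which may be technical.

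In S phase a cell copies its genome once. The minichromosome maintenance helicase (*Mcm2* to *Mcm7*) unwinds the origins, *Pcna* clamps the polymerase to the template, ribonucleotide reductase (*Rrm1*, *Rrm2*), *Tk1* and *Tyms* supply nucleotides, and cyclin E (*Ccne1*, *Ccne2*) drives entry. In G2/M, *Cdk1* with cyclins A and B (*Ccna2*, *Ccnb1*, *Ccnb2*) triggers mitosis, *Aurka*, *Aurkb*, *Plk1*, *Birc5* and *Cdca8* organise and watch over the spindle, *Top2a* untangles the chromosomes, and *Ube2c* tags mitotic proteins for destruction. In growing bone, division is known from the proliferative columns of the growth plate, from vessels advancing into the metaphysis, from osteoprogenitors and from the haematopoietic marrow, whereas perivascular stromal cells and mature osteoblasts are regarded as slowly dividing.

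Promoter elements known from cell-cycle genes were searched in the members, and a few windows are shown to make the letters visible beside the levels. The windows run from 250 bases before to 50 bases after the start of the gene (RefSeq, GRCm38.p6, strand of the gene), and a window was matched for 31 of the 36 genes. Searched on both strands were the cell-cycle genes homology region, CHR (TTTGAA or TTCGAA), the CCAAT box (CCAAT), and E2F sites (TTTCCCGC, TTTGGCGC, TTTCGCGC or TTTGCCGC), and matches are in capitals, overlapping ones running together. Shown are *Mcm6* for the S list (chr1:128359656-128359955, minus strand; 3 E2F and 2 CCAAT matches), *Ccnb2* for the G2/M list (chr9:70421505-70421804, minus strand; 2 CHR and 3 CCAAT matches) and *Cdk1*, which held all of these elements (chr10:69352863-69353162, minus strand; 2 CHR, 3 CCAAT and 1 E2F match).
Mcm6: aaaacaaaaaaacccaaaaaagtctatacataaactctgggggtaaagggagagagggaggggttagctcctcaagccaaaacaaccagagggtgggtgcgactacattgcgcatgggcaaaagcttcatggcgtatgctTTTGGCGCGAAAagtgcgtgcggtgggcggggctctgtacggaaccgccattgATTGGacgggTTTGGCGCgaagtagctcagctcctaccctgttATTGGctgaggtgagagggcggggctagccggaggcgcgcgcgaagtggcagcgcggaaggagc
Ccnb2: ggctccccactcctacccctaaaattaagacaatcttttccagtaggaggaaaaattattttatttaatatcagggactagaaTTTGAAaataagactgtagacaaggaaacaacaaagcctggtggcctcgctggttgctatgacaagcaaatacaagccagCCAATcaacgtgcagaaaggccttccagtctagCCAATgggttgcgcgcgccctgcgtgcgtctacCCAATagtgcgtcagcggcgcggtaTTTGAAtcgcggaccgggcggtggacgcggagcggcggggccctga
Cdk1: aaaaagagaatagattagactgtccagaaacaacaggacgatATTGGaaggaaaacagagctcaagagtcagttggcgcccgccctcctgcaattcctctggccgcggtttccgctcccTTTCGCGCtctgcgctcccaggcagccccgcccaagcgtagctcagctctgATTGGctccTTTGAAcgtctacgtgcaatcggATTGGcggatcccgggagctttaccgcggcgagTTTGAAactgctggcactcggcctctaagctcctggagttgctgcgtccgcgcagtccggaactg
Over the G2/M list 14 of 18 windows (77.8%) held a CHR and a CCAAT box together, against 2 of 14 windows (14.3%) of the S list and 7.52% of all 32851 promoter windows of this length. E2F letters were in 6 of 14 windows of the S list (42.9%), 1 of 18 of the G2/M list (5.56%) and 2.26% of all windows. *Mcm7* entered the S list with 2 windows, so its 14 windows stand for 13 genes. Like that of *Cdk1*, 1 of these held all 3 elements (1 CHR, 3 CCAAT and 2 E2F matches), and the other held 1 CCAAT match only. The windows of *Birc5*, *Nusap1*, *Tyms*, *Tk1* and *Ccne1* held none of the 3 elements. These matches are descriptions of the letters in the window.

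The libraries held 25243314, 22082735 and 91747759 unique molecular identifiers (UMIs, the count of captured transcripts), and 2389, 2011 and 11319 cells passed the filters, in the order metaphyseal 1, metaphyseal 2 and *Pdgfra-GFP*, which is kept for all triplets of values. Of their barcodes, 0, 9 and 10 were shared between pairs of libraries. Cells were assigned to 6 lineages by marker genes, without clustering and without the 36 members, and are called stromal-like (789, 729 and 5073 cells), osteoblast-like (216, 182 and 1722), chondrocyte-like (44, 39 and 1633), endothelial-like (1096, 868 and 343), haematopoietic-like (107, 82 and 376) and erythroid-like (10, 9 and 69). Of the 42 markers of these lineages, 41, 41 and 42 had their highest level in their own gate, the exception in both metaphyseal libraries being *Postn*, at 54.3 and 49.2 raw CPM (UMIs scaled to a total of 1000000 per sum) in stromal-like and 59.2 and 63.7 in osteoblast-like cells. For example, *Cxcl12* was at 21054, 21193 and 18868 raw CPM in stromal-like cells, *Acan* at 3808, 3813 and 2735 in chondrocyte-like cells and *Cdh5* at 1418, 1432 and 871 in endothelial-like cells. These markers made the gate, so their levels describe the gate and do not test it. Against the label of the metaphyseal libraries, which names mesenchymal stromal cells, endothelial-like cells were their largest group, at 45.9% and 43.2% of cells, before stromal-like cells at 33.0% and 36.3%. Haematopoietic-like cells carried *Ptprc*, the gene of CD45, at 225, 233 and 103 raw CPM although CD45+ cells had been depleted from the metaphyseal suspensions, and the GFP sort still held 3.03% endothelial-like and 3.32% haematopoietic-like cells. The filter on genes per cell keeps large cells, so that haematopoietic-like and erythroid-like cells here stand for those that passed depletion, sort and filter, not for the marrow.

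Cycling cells were rare among stromal-like cells and frequent among haematopoietic-like and erythroid-like ones. A cell was called cycling when at least 3 distinct S genes or at least 3 distinct G2/M genes had a UMI after thinning of each cell to 2000 UMIs. Of stromal-like cells, 15 of 789 (1.90%, exact 95% interval 1.07 to 3.12), 7 of 729 (0.960%, 0.387 to 1.97) and 76 of 4758 (1.60%, 1.26 to 2.0) were cycling. The share was low in every library. Of osteoblast-like cells, which make bone matrix, 14 of 216 (6.48%, 3.59 to 10.6), 8 of 182 (4.40%, 1.92 to 8.48) and 47 of 1716 (2.74%, 2.02 to 3.63) were cycling. Of chondrocyte-like cells, which make cartilage, 2 of 44 (4.55%, 0.555 to 15.5), 2 of 39 (5.13%, 0.627 to 17.3) and 115 of 1629 (7.06%, 5.86 to 8.41) were cycling. The metaphyseal values of chondrocyte-like cells rest on 2 cycling cells each.

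Endothelial-like cells, the lining of the vessels, cycled in 109 of 1096 (9.95%, 8.24 to 11.9), 83 of 868 (9.56%, 7.69 to 11.7) and 37 of 326 cells (11.3%, 8.12 to 15.3), with an SD of 0.913 percentage points between libraries. Of haematopoietic-like cells, 46 of 107 (43.0%, 33.5 to 52.9), 43 of 82 (52.4%, 41.1 to 63.6) and 136 of 369 (36.9%, 31.9 to 42.0) were cycling. Of erythroid-like cells, the nucleated precursors of red cells, 8 of 10 (80.0%, 44.4 to 97.5), 7 of 9 (77.8%, 40.0 to 97.2) and 61 of 68 (89.7%, 79.9 to 95.8) were cycling. Averaged over libraries, the order was stromal-like 1.49% ± 0.480 (SD, n = 3), osteoblast-like 4.54% ± 1.87, chondrocyte-like 5.58% ± 1.31, endothelial-like 10.3% ± 0.913, haematopoietic-like 44.1% ± 7.81 and erythroid-like 82.5% ± 6.33. Cells are not replicates and no test was run on these shares. The intervals cover counting error only. They did not overlap between endothelial-like and haematopoietic-like cells in any library, nor between stromal-like and osteoblast-like cells in metaphyseal 1 and in the *Pdgfra-GFP* library, whereas in metaphyseal 2 these overlapped slightly. Osteoblast-like and chondrocyte-like cells overlapped in both metaphyseal libraries, in the opposite order in metaphyseal 1, and were apart in the *Pdgfra-GFP* library, chondrocyte-like and endothelial-like cells overlapped in all 3 libraries, and haematopoietic-like and erythroid-like cells overlapped in both metaphyseal libraries.

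**Figure D1:**
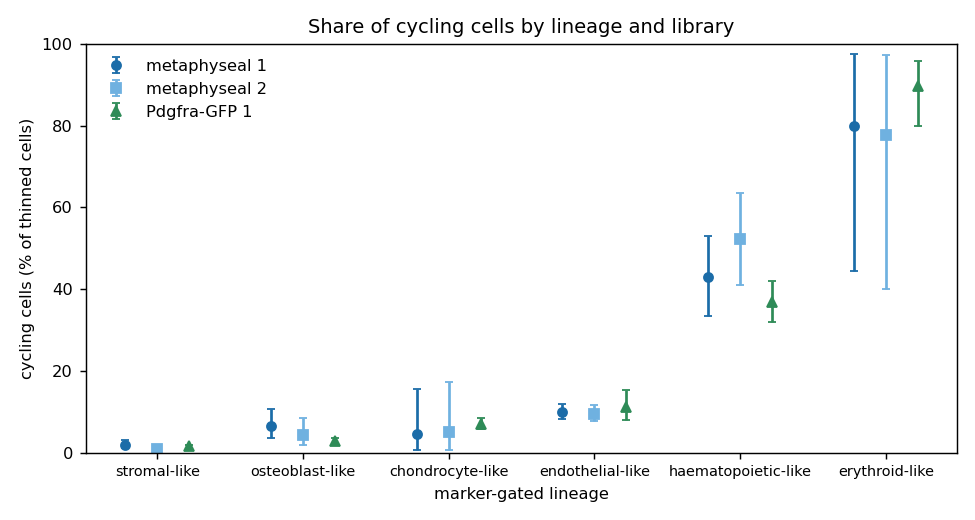
Share of cycling cells among the thinned cells of each marker-gated lineage, in percent, for the 3 libraries; points are the shares and bars the exact 95% binomial intervals. Stromal-like cells sit between 0.960% and 1.90%, endothelial-like cells between 9.56% and 11.3%, and haematopoietic-like cells at 36.9% and above.

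The call depends on depth, and lineages differed in depth. Without thinning, 29.2%, 20.9% and 7.38% of osteoblast-like cells passed it at median depths of 21458, 20720 and 11504 UMIs, and 34.1%, 51.3% and 14.4% of chondrocyte-like cells did, against 8.37%, 6.86% and 5.87% of stromal-like cells at 5770, 5851 and 3830 UMIs. After thinning, 676 of 15300 cells lay just below the threshold with 2 distinct members in the fuller list and 186 just at it with 3. Thinning left out 419 shallower cells, all from the *Pdgfra-GFP* library and 315 of them stromal-like. It evens the total of UMIs but not their make-up, and genes that take many UMIs leave fewer for the members. In osteoblast-like cells *Bglap* alone stood at 10881, 14094 and 81465 raw CPM. The part of this in the shares was not tested.

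The cycling cells of the libraries came from different lineages. Endothelial-like cells made up 51.4% and 51.2% of the 212 and 162 cycling cells of the metaphyseal libraries and 5.65% of the 655 of the *Pdgfra-GFP* library. Chondrocyte-like cells were 17.6% of the cycling cells of the *Pdgfra-GFP* library and 0.943% and 1.23% of those of the metaphyseal libraries. Haematopoietic-like cells were 21.7%, 26.5% and 20.8%. These numbers follow the sort and the depletion as well as the division of the cells.

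Stromal-like cells that led with *Postn* and *Wif1*, markers of metaphyseal stroma, were compared by value with those that led with *Lepr* and *Adipoq*, markers of marrow stroma rich in adipogenic and haematopoietic support genes. Of the former, 6 of 97 (6.19%, 2.30 to 13.0), 1 of 90 (1.11%, 0.0281 to 6.04) and 47 of 1014 (4.64%, 3.43 to 6.12) were cycling. Of the latter, 9 of 686 (1.31%, 0.602 to 2.48), 6 of 637 (0.942%, 0.346 to 2.04) and 29 of 3720 (0.780%, 0.523 to 1.12) were. The intervals were apart in the *Pdgfra-GFP* library and overlapped in both metaphyseal libraries. Neither *Postn* nor *Wif1* was confined to stromal-like cells. In the *Pdgfra-GFP* library *Wif1* was at 909 raw CPM in chondrocyte-like against 1023 in stromal-like cells. It was at 218, 209 and 186 raw CPM in osteoblast-like cells, where *Postn* also exceeded its stromal-like level in both metaphyseal libraries. The *Postn* and *Wif1* side was also deeper before thinning, at medians of 8048, 7206 and 5862 UMIs against 5646, 5641 and 3592, and the part of depth in this difference was not tested beyond the thinning.

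The cycling cells held a larger share of the G2/M than of the S transcripts in stromal-like, osteoblast-like, endothelial-like and haematopoietic-like cells of every library. In stromal-like cells the cycling cells, which were called on these same genes, carried 71.8%, 33.8% and 71.8% of all G2/M UMIs but 23.8%, 3.69% and 25.4% of all S UMIs. In osteoblast-like cells they carried 64.6%, 73.1% and 69.7% of G2/M and 40.8%, 28.9% and 40.7% of S UMIs. In chondrocyte-like cells they carried 78.3%, 13.5% and 94.8% of G2/M and 7.0%, 46.5% and 58.5% of S UMIs, so that metaphyseal 2, with 2 cycling cells, stood the other way. In endothelial-like cells they carried 89.3%, 91.1% and 88.2% of G2/M and 52.5%, 53.2% and 46.0% of S UMIs. In haematopoietic-like cells both lists sat almost wholly in cycling cells, with at least 95.9% of G2/M and 89.4% of S UMIs in each library. The remaining stromal-like cells kept S transcripts at 164, 171 and 195 raw CPM and G2/M transcripts at 47.3, 34.5 and 41.6 raw CPM. Haemoglobin transcripts in stromal-like cells put the share of free RNA at 2.33%, 4.12% and 5.87%, which would bring 11, 18.5 and 23.7 raw CPM of S and 15.2, 23.7 and 31.4 raw CPM of G2/M transcripts. The levels outside the cycling cells were limited by the call itself, and the part of free RNA in them was not tested.

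*Pcna* and *Mki67* are given as examples, and *Pcna* is not typical of the S list. Over all stromal-like cells it was the highest S gene, at 61.1, 48.5 and 69.0 raw CPM. *Ccne1* was at 2.88, 1.34 and 2.29 and *Tk1* at 2.67, 0.891 and 11.7 raw CPM there. In stromal-like cells not called cycling, *Pcna* was at 58.6, 48.3 and 61.9 raw CPM and at 134, 71.7 and 354 in cycling ones. *Mki67*, a marker of all phases but G0, was at 2.77, 1.13 and 0.965 raw CPM in the former and at 268, 161 and 199 in the latter. In endothelial-like cells *Pcna* stood at 67.3, 57.1 and 70.5 raw CPM outside and 319, 309 and 216 inside the cycling cells, and *Mki67* at 2.67, 3.27 and 0.618 outside and 519, 479 and 247 inside. *Mcm7*, a subunit of the replicative helicase, was present outside the cycling cells of stromal-like cells at 27.5, 33.6 and 26.4 raw CPM. Since these genes were part of the call, the values are descriptions.

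The balance of the lists over all cells of a lineage was then compared. S genes gave 56.2%, 77.3% and 64.1% of the UMIs of the 36 genes in stromal-like cells, against 42.2%, 35.7% and 47.7% in osteoblast-like, 33.6%, 52.9% and 38.7% in chondrocyte-like, 45.2%, 46.7% and 40.6% in endothelial-like, 42.3%, 35.2% and 43.0% in haematopoietic-like and 39.4%, 38.4% and 38.4% in erythroid-like cells. The stromal-like share was above that of every other lineage in each library, and the other lineages lay between 33.6% and 52.9%. Within cycling stromal-like cells alone the S share was 29.9%, 27.1% and 38.5%, and within the others 77.6%, 83.2% and 82.4%, so the balance over all cells followed those not called cycling. In the latter, *Pcna* alone gave 58.6, 48.3 and 61.9 of the 164, 171 and 195 raw CPM of S genes. The S share was thus not spread evenly over the list. The split by class was not particular to stromal-like cells: in endothelial-like cells it was 32.6%, 33.8% and 26.2% against 78.6%, 82.2% and 75.6%. Osteoblast-like and haematopoietic-like cells had the same direction in every library. Chondrocyte-like cells of metaphyseal 2 and erythroid-like cells of metaphyseal 1 and the *Pdgfra-GFP* library were reversed, with few cells in 1 class. With the free RNA subtracted, the stromal-like share was 57.3%, 85.0% and 67.5%. Among the cycling cells, a cell could pass on the S list only, on the G2/M list only or on both. Of stromal-like cycling cells 26.7%, 42.9% and 34.2% passed on S only and 60.0%, 57.1% and 31.6% on G2/M only, of 15, 7 and 76 cells. Endothelial-like cycling cells were spread evenly, with 34.9%, 36.1% and 29.7% on S only, 32.1%, 37.3% and 35.1% on G2/M only and 33.0%, 26.5% and 35.1% on both. Of the 47 osteoblast-like cycling cells of the *Pdgfra-GFP* library, 8 passed on S only (17.0%, 7.65 to 30.8) and 28 on G2/M only (59.6%, 44.3 to 73.6). Erythroid-like cells of that library passed mostly on both (43 of 61, 70.5%, 57.4 to 81.5). A cell with more member UMIs passes on both lists more easily, so these calls are no measure of time spent in a phase.

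**Figure D2:**
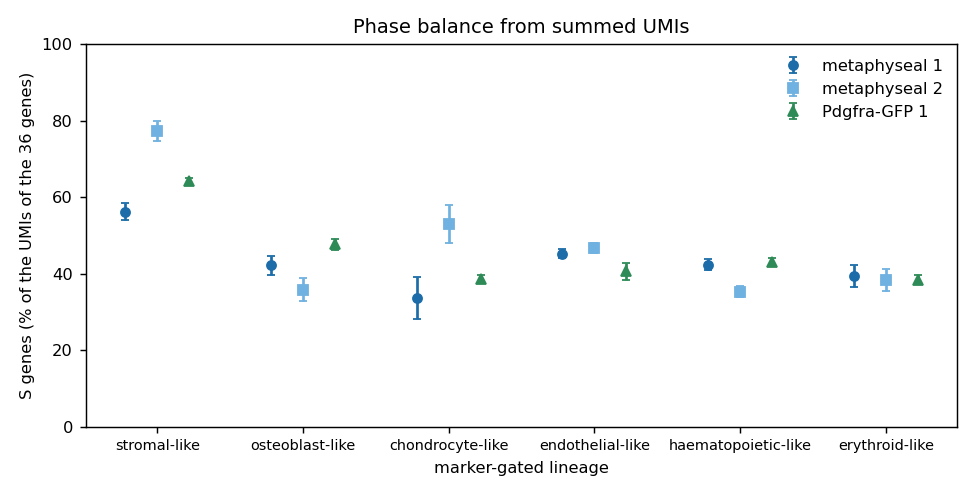
S genes as a percentage of the summed UMIs of the 36 genes, by marker-gated lineage and library; bars are exact 95% binomial intervals. The 3 stromal-like points, at 56.2%, 77.3% and 64.1%, are above all points of the other lineages.

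Levels of the members were then compared between lineages on UMIs summed per library and lineage, with stromal-like cells as the reference, by edgeR's quasi-likelihood test with the library as a block and Benjamini-Hochberg adjustment over 16105 genes. Levels are given as CPM scaled by trimmed mean of M-values (TMM), which corrects for lineages in which a few genes take many of the UMIs. The TMM factors were 0.833, 0.814 and 0.597 in osteoblast-like cells, against 1.39, 1.39 and 1.21 in stromal-like cells. *Bglap* stood at 10881, 14094 and 81465 raw CPM in the former, and *Cxcl12* at 21054, 21193 and 18868 in the latter. The part of single genes in these factors was not tested. In bulk sums, more dividing cells and more of a transcript per dividing cell cannot be told apart.

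**Figure D3:**
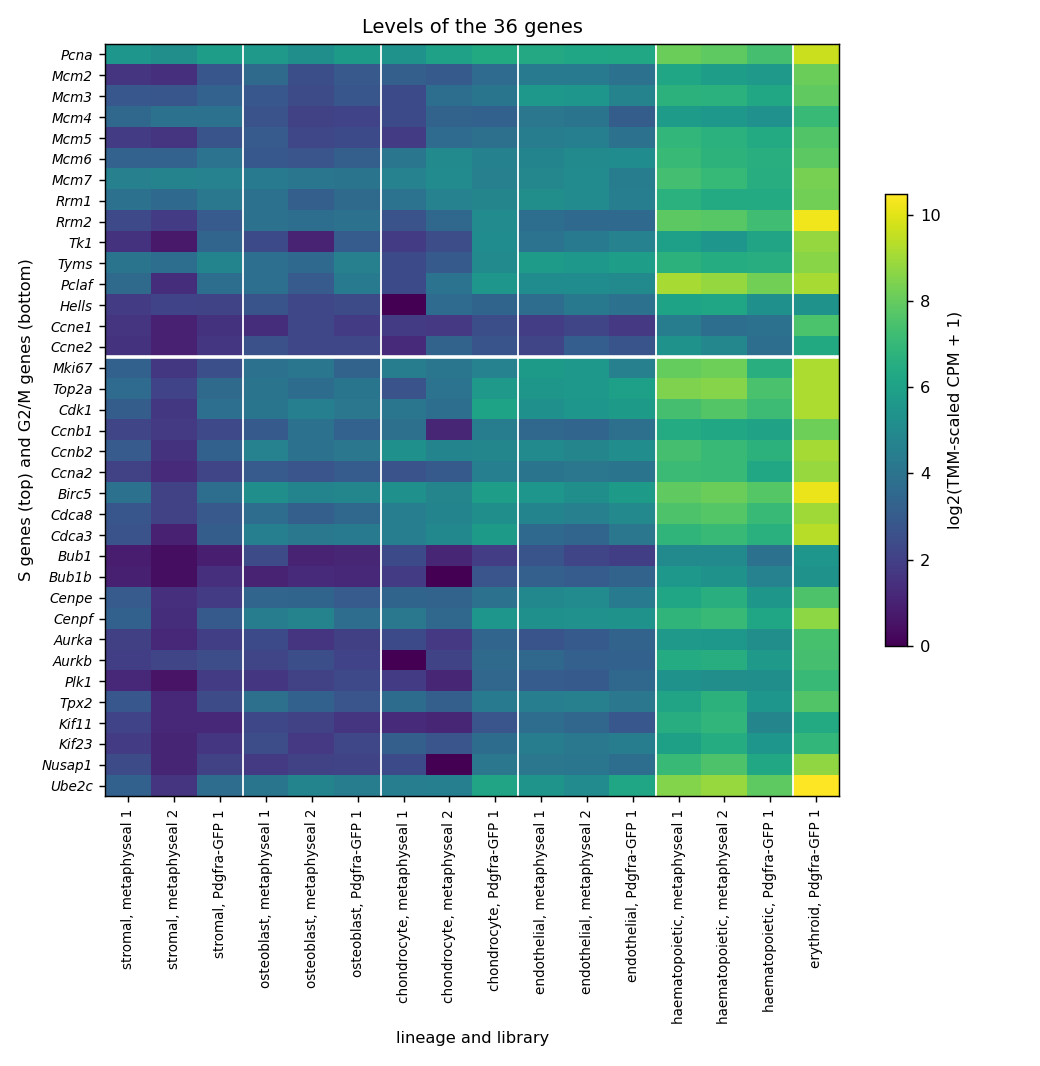
Levels of the 36 genes as log2 of TMM-scaled CPM plus 1, with S genes above and G2/M genes below the white line, for the sums of at least 20 cells, ordered by lineage and library. The haematopoietic-like and erythroid-like columns are the brightest in nearly every row, *Mki67* standing at 251, 288 and 92.2 CPM in haematopoietic-like and 579 CPM in erythroid-like cells against 8.43, 2.24 and 4.87 CPM in stromal-like cells.

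Haematopoietic-like cells were higher than stromal-like cells for all 36 members, where 25.1% of all genes tested were called higher and 25.0% lower. The median log2 fold change was 3.68 over the S list and 4.66 over the G2/M list, against -0.08 over all genes. *Ube2c*, the E2 enzyme of the anaphase-promoting complex, stood at 367, 464 and 236 TMM-scaled CPM against 8.43, 2.08 and 12.4 in stromal-like cells (log2 fold change 5.66 ± 0.55 SE, adjusted p = 1.6e-06). The groups did not overlap. *Pclaf*, a partner of PCNA, was at 551, 451 and 300 CPM against 11.2, 1.60 and 12.9 (5.82 ± 0.61, adjusted p = 3.24e-06). The smallest difference was that of *Mcm4*, at 52.0, 47.4 and 38.1 CPM against 10.4, 13.9 and 14.1 (1.79 ± 0.26, adjusted p = 5.95e-05). For 32 of the 36 members the *Pdgfra-GFP* library had the lowest haematopoietic-like level, among them *Mki67*, *Top2a* (344, 381 and 174 CPM) and *Kif11*, a spindle motor (91.8, 119 and 26.0 CPM). How many of all genes were also lowest there was not counted, so this is not read as a trait of the members. All 36 were also called higher in each of the other settings tried, leaving out each library included. The calls over all genes are given here only for the setting without TMM. Without TMM, 31.1% rather than 50.1% of all calls were higher, with the median of all genes at -0.52.

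Erythroid-like cells entered the fit as the sum of the *Pdgfra-GFP* library alone (69 cells), so that it has no spread of its own: the fit assumes that it varies like the other sums, and its calls compare 1 sum with the rest. On that assumption all 36 members were called higher. There, 10.0% of all genes were called higher and 9.93% lower, and the median of all genes was -1.0, to which the values below are to be set. The median log2 fold change was 5.09 over the S list and 6.14 over the G2/M list. Higher calls were 50.2% of all calls, 64.8% with DESeq2 size factors and 18.9% without TMM, and all 36 members were called higher under each. *Rrm2*, the small subunit of ribonucleotide reductase, was at 1219 TMM-scaled CPM against 6.92 in stromal-like cells of that library. The joint fit over all libraries put its log2 fold change at 7.79. *Birc5* (survivin) was at 1145 against 12.9 CPM and *Ube2c* at 1413 against 12.4. *Ccne1*, cyclin E1, was at 181 CPM, where haematopoietic-like cells had 20.8, 12.7 and 13.8 CPM, and *Hells*, a chromatin remodeller of replicating cells, was at 39.4 CPM against 66.2, 70.6 and 37.5 there. The 10 and 9 erythroid-like cells of the metaphyseal libraries, too few for the fit, held S genes at 4305 and 2910 and G2/M genes at 6619 and 4676 raw CPM, beside 3776 and 6063 in the *Pdgfra-GFP* library.

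Endothelial-like cells were higher for 33 of 36 members and lower for none, against 25.2% and 19.9% of all genes. All 21 G2/M genes and 12 of 15 S genes were higher, with median log2 fold changes of 2.39 and 1.52 against 0.09 over all genes. *Kif23*, a motor of the central spindle, was at 20, 17.0 and 20.2 TMM-scaled CPM against 2.66, 1.12 and 2.17 (3.20 ± 0.32, adjusted p = 2.1e-06). *Mki67* was at 51.7, 47.2 and 22.6 CPM against 8.43, 2.24 and 4.87 (2.87 ± 0.40, adjusted p = 4.11e-05). Both genes separated the groups, and *Mki67* was lower in the endothelial-like cells of the sorted library than in those of the metaphyseal ones. Of the helicase, *Mcm3* was at 46.7, 44.5 and 24.5 CPM against 6.07, 5.93 and 8.82 (2.45 ± 0.30, adjusted p = 1.24e-05). *Mcm4*, at 16.8, 15.2 and 7.53 CPM against 10.4, 13.9 and 14.1, and *Mcm7*, at 28.0, 32.3 and 20.2 CPM against 22.5, 24.5 and 23.9, did not pass the test (adjusted p = 0.872 and 0.507), and neither did *Ccne1* (adjusted p = 0.0925). Leaving out a library gave 28, 26 and 33 calls, for which the shares of all genes were not counted.

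Chondrocyte-like cells were higher for 30 members and lower for none, where 21.7% of all genes were called higher and 20.3% lower. Of the G2/M list 20 of 21 genes were higher, and of the S list 10 of 15, with medians of 2.07 and 1.24 against -0.02 over all genes. *Cdca3*, a trigger of mitotic entry, was at 21.5, 28.7 and 51.1 TMM-scaled CPM against 5.48, 0.961 and 7.60 (2.87 ± 0.41, adjusted p = 6.62e-05). *Cdca8*, of the chromosomal passenger complex, was at 21.5, 25.2 and 36.6 CPM against 5.92, 3.04 and 6.50 (2.48 ± 0.29, adjusted p = 1.12e-05). These separated the groups in every library. *Top2a* did not, at 5.37, 14.9 and 48.3 CPM against 11.7, 3.36 and 11.4 (1.61 ± 0.53, adjusted p = 0.024), and its call was lost without metaphyseal 2 (adjusted p = 0.117), the *Pdgfra-GFP* library (0.590), the block (0.0542) or TMM (0.0713). *Tyms*, thymidylate synthase, was at 4.03, 6.88 and 30.1 CPM against 15.2, 12.8 and 25.5 and *Pcna* at 40.3, 61.9 and 80.5 against 43.9, 34.9 and 57.2, and neither passed (adjusted p = 0.868 and 0.156). The chondrocyte-like calls lean on the sorted library, which holds 1633 of these cells against 44 and 39: without it 12 members were higher and 1 lower. Without metaphyseal 2, 22 were higher. For these 2 refits the shares of all genes were not counted. Scaled to total UMIs without TMM, 21 were higher and 1 lower, and 27.6% rather than 51.7% of all calls were higher, a shift of the median gene from -0.02 to -0.48.

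In osteoblast-like cells, of the G2/M genes 11 of 21 were higher and none was lower, and of the S genes 1 of 15 was higher and 3 were lower, against 21.5% of all genes higher and 22.2% lower. The medians were 1.23 and 0.06. *Cdca3* was at 22.1, 17.5 and 19.4 TMM-scaled CPM against 5.48, 0.961 and 7.60 (2.03 ± 0.39, adjusted p = 0.000771). *Birc5* was at 36.4, 25.5 and 26.6 CPM against 14.1, 3.20 and 12.9 (1.59 ± 0.35, adjusted p = 0.00188). *Ccnb2*, cyclin B2, was at 24.0, 13.8 and 16.5 CPM against 7.10, 1.92 and 8.51 (1.55 ± 0.31, adjusted p = 0.000948). In these genes every osteoblast-like value was above every stromal-like one. Without TMM, *Birc5* and *Ccnb2* no longer passed (adjusted p = 0.0592 and 0.0655).

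Of the S genes of osteoblast-like cells, 3 of 15 lower and 1 higher are no more than the shares of all genes. *Mcm4* was at 5.39, 3.02 and 3.35 TMM-scaled CPM against 10.4, 13.9 and 14.1 (-1.74 ± 0.29, adjusted p = 0.000245), *Mcm6* was lower by -0.69 ± 0.25 (adjusted p = 0.0377) and *Mcm7* by -0.50 ± 0.18 (adjusted p = 0.0426). The call of *Mcm4* held in all settings tried. That of *Mcm6* was lost without metaphyseal 1, metaphyseal 2 or the *Pdgfra-GFP* library (adjusted p = 0.0713, 0.109 and 0.0676), without the block (0.0743) and in DESeq2's Wald test (0.0554), and that of *Mcm7* without metaphyseal 1 or 2 (0.0515 and 0.222), without the block (0.158) and without doublets (0.0608). *Rrm2* was higher, at 14.0, 12.8 and 14.4 CPM against 4.0, 2.56 and 6.92 (1.57 ± 0.40, adjusted p = 0.00547), a call lost without metaphyseal 2 (adjusted p = 0.0752) and without TMM (0.0917). Of the G2/M list *Top2a*, *Cdk1*, *Aurka*, *Aurkb*, *Plk1*, *Tpx2*, *Bub1b*, *Kif11*, *Kif23* and *Nusap1* did not pass the test. The higher calls depend on the scaling. Scaled to total UMIs without TMM, the median of all genes moved from -0.05 to -0.90, the share of higher calls among all calls from 49.2% to 13.2%, and 1 member (*Cdca3*, 1.20, adjusted p = 0.0136) was higher and 7, all of the S list, were lower, with medians of 0.36 for G2/M and -0.84 for S. A change of scaling moves both lists alike, and the difference between the lists was not tested. Without metaphyseal 1, 6 members were higher and 1 lower, without metaphyseal 2, 4 and 1, and without the *Pdgfra-GFP* library, 18 and 2. Shares of all genes were not counted for these refits, so the counts cannot be set against a background. Metaphyseal 2 had the lowest stromal-like G2/M level, with 37.0 TMM-scaled CPM for the list against 116 and 118.

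**Figure D4:**
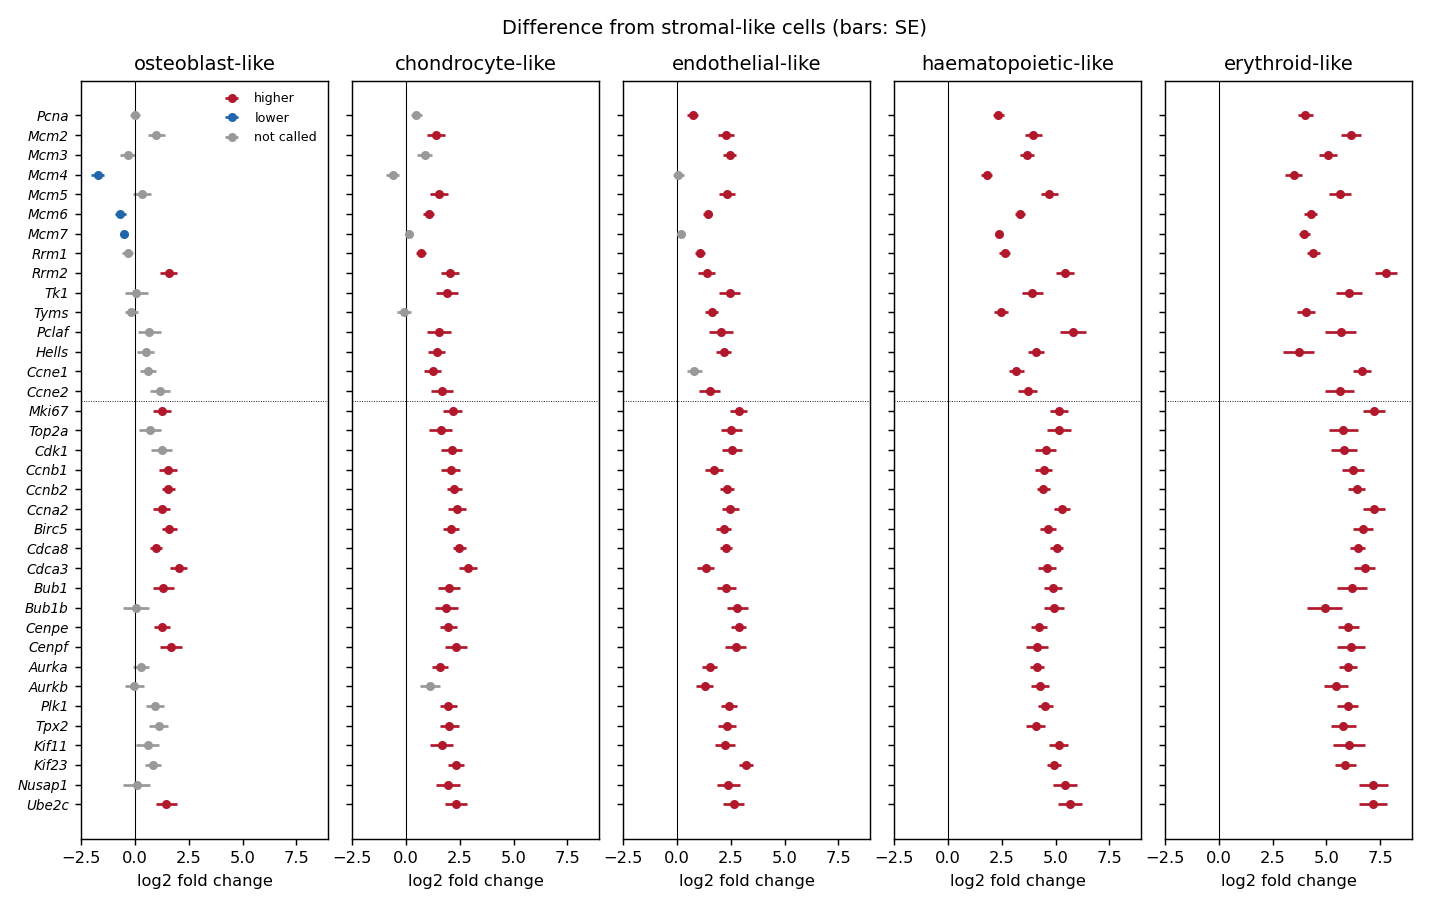
Log2 fold change of each member against stromal-like cells, with S genes above and G2/M genes below the dotted line; points are edgeR estimates, bars their SE, and colours mark genes called higher, lower or not called at an adjusted p under 0.05. All 36 genes lie to the right of 0 in haematopoietic-like and erythroid-like cells, while in osteoblast-like cells *Mcm4* lies at -1.74 and *Cdca3* at 2.03; that of *Cdca3* is 1.20 without TMM.

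Of 48 other cell-cycle genes taken as regulators, 38 were higher and 3 lower in haematopoietic-like, 30 and 3 in erythroid-like, 26 and 2 in endothelial-like, 19 and 3 in chondrocyte-like and 10 and 6 in osteoblast-like cells. Over all genes the shares called higher were 25.1%, 10.0%, 25.2%, 21.7% and 21.5% in this order and those called lower 25.0%, 9.93%, 19.9%, 20.3% and 22.2%, so that the counts in osteoblast-like cells are no more than the background. *Ccnd1*, cyclin D1 of G1 phase, was at 8.73, 4.32 and 10.1 TMM-scaled CPM in stromal-like cells. It was at 105, 72.3 and 49.2 in osteoblast-like cells (3.28 ± 0.50, adjusted p = 0.000102), at 61.7, 99.8 and 82.7 in chondrocyte-like cells and at 133, 124 and 96.9 in endothelial-like cells (3.94 ± 0.51, adjusted p = 1.99e-05). In haematopoietic-like cells it was at 9.46, 4.63 and 45.9 (1.58 ± 0.54, adjusted p = 0.0254), highest in the *Pdgfra-GFP* library. Both metaphyseal values were close to the stromal-like ones, so this call leans on the *Pdgfra-GFP* library. The erythroid-like sum had 0 of 617842 UMIs, which allows up to 4.86 raw CPM. Among the inhibitors, *Cdkn1c*, the p57 protein that holds cells in G1, was at 244, 228 and 391 CPM in stromal-like cells, at 745, 609 and 682 in chondrocyte-like cells (1.31 ± 0.29, adjusted p = 0.00234), at 20.7, 23.9 and 45.8 in osteoblast-like cells (-3.27 ± 0.32, adjusted p = 1.73e-06) and at 15.1, 6.94 and 42.9 in haematopoietic-like cells (-3.70 ± 0.34, adjusted p = 9.68e-07). *Cdkn1a*, the p21 inhibitor, was at 678, 673 and 435 CPM in chondrocyte-like and 307, 278 and 695 in osteoblast-like cells against 86.4, 80.2 and 127 in stromal-like cells, and both passed the test (2.73 ± 0.35 and 2.04 ± 0.34). Of the lineages, chondrocyte-like cells had the highest *Cdkn1c* level in every library and the highest *Cdkn1a* level in both metaphyseal libraries.

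Among the transcription factors of the cycle, *E2f7*, an atypical E2F repressor, was at 17.7, 15.5 and 10.4 TMM-scaled CPM in endothelial-like cells and at 0.740, 0 and 0.456 in stromal-like cells (4.93 ± 0.44, adjusted p = 7.7e-07), above its level in haematopoietic-like cells (10.4, 5.79 and 5.40 CPM). Its relative *E2f8* was at 4.55, 3.66 and 2.82 CPM in endothelial-like cells and at 36.9, 34.7 and 20.9 in haematopoietic-like cells. The difference between these lineages was not tested. *E2f7* was also present in endothelial-like cells not called cycling, at 17.2, 15.5 and 8.66 raw CPM, against 56.3, 46.8 and 31.6 in cycling ones. Of the 9 E2F and mitotic factors, 8 were higher in haematopoietic-like, 7 in endothelial-like, 4 in chondrocyte-like and 0 in osteoblast-like cells at adjusted p under 0.05, the last also 0 at an unadjusted p under 0.05, against the shares of all genes given above, and the lineages were not tested against each other. In osteoblast-like cells the 9 had a median log2 fold change of 0.58.

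Within a lineage and library, cycling cells were compared with the remaining cells for genes outside the 36, which were left out of the adjustment because they made the call. This used the 9 pairs of library and lineage with at least 20 cells in each class, among them 5 of the *Pdgfra-GFP* library. The 9 pairs come from 3 libraries and lineages of 1 library are not independent replicates, so that p-values and counts of pairs overstate the number of samples. Of 7933 genes, 12.4% were called higher and 16.5% lower. Of 43 regulators tested, 29 were higher and 3 were lower. Many regulators act in the same phases as the genes that made the call. Their direction is therefore not independent of it, and their values are descriptions of the called cells. *Cdc20*, the activator of the anaphase-promoting complex, was the one with the smallest p: in endothelial-like cells it stood at 230, 262 and 300 raw CPM in cycling cells and at 4.68, 3.68 and 6.8 in the others, and in stromal-like cells of the *Pdgfra-GFP* library at 229 and 3.67 (5.82 ± 0.19, adjusted p = 2.58e-11). It was higher in 9 of 9 pairs. All 8 genes of the mitotic checkpoint and exit and all 8 licensing and replication genes tested were higher, with medians of 4.83 and 3.31 against -0.10 over all genes, and 8 of 9 E2F and mitotic factors were, *Foxm1* by 4.70 ± 0.31 and *Mybl2* by 4.25 ± 0.29.

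The G1 genes and inhibitors were mixed. *Ccnd1*, *Ccnd2*, *Ccnd3* and *Cdk6* did not pass the test, with log2 fold changes of 0.51, -0.51, 0.38 and 0.62, whereas *Cdk2* (1.61 ± 0.22, adjusted p = 6.69e-05) and *Cdk4* (0.95 ± 0.15, adjusted p = 0.000342) were higher in 9 of 9 pairs. The pooled values of *Ccnd1* and *Ccnd2* join pairs of opposite direction. *Ccnd1* was higher in 7 of 9 pairs, as in osteoblast-like cells (142 against 26.3 raw CPM). It was lower in haematopoietic-like cells of metaphyseal 1 and 2 (1.73 against 17.2 and 0 against 9.93), on 10 and 4 UMIs. *Ccnd2* was higher in 2 of 9 pairs. Lineages were not tested apart. *Cdkn1c* was lower (-1.52 ± 0.20, adjusted p = 5.68e-05), at 88.8, 128 and 126 raw CPM in cycling and 384, 353 and 399 in other endothelial-like cells. In chondrocyte-like cells of the *Pdgfra-GFP* library the values were 435 and 560 raw CPM. *Btg2* (-1.12 ± 0.17) and *Btg1* (-0.62 ± 0.14), antiproliferative genes of the BTG family, were also lower. *Cdkn1c*, *Btg2* and *Btg1* each went the other way in 1 of 9 pairs, the osteoblast-like cells of the *Pdgfra-GFP* library. There, cycling and other cells had 28.8 and 27.3 raw CPM of *Cdkn1c*, 28.8 and 28.1 of *Btg2* and 177 and 104 of *Btg1*. *Cdkn2c* (3.02 ± 0.25, adjusted p = 3.11e-07), *Cdkn2d* (1.59 ± 0.18) and *Rbl1* (2.23 ± 0.21) were higher although they are classed as inhibitors. *Cdkn2c* and *Cdkn2d* encode INK4 inhibitors of *Cdk4* and *Cdk6*, and *Rbl1* a pocket protein that is itself a target of E2F. *Cdkn1a* and *Cdkn1b* did not pass (-0.11 and -0.24). On thinned cells, which left 14 of the regulators above the filter, 6 were higher and 4 lower. Shares of all genes are not given for that setting, so these counts cannot be set against a background.

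**Figure D5:**
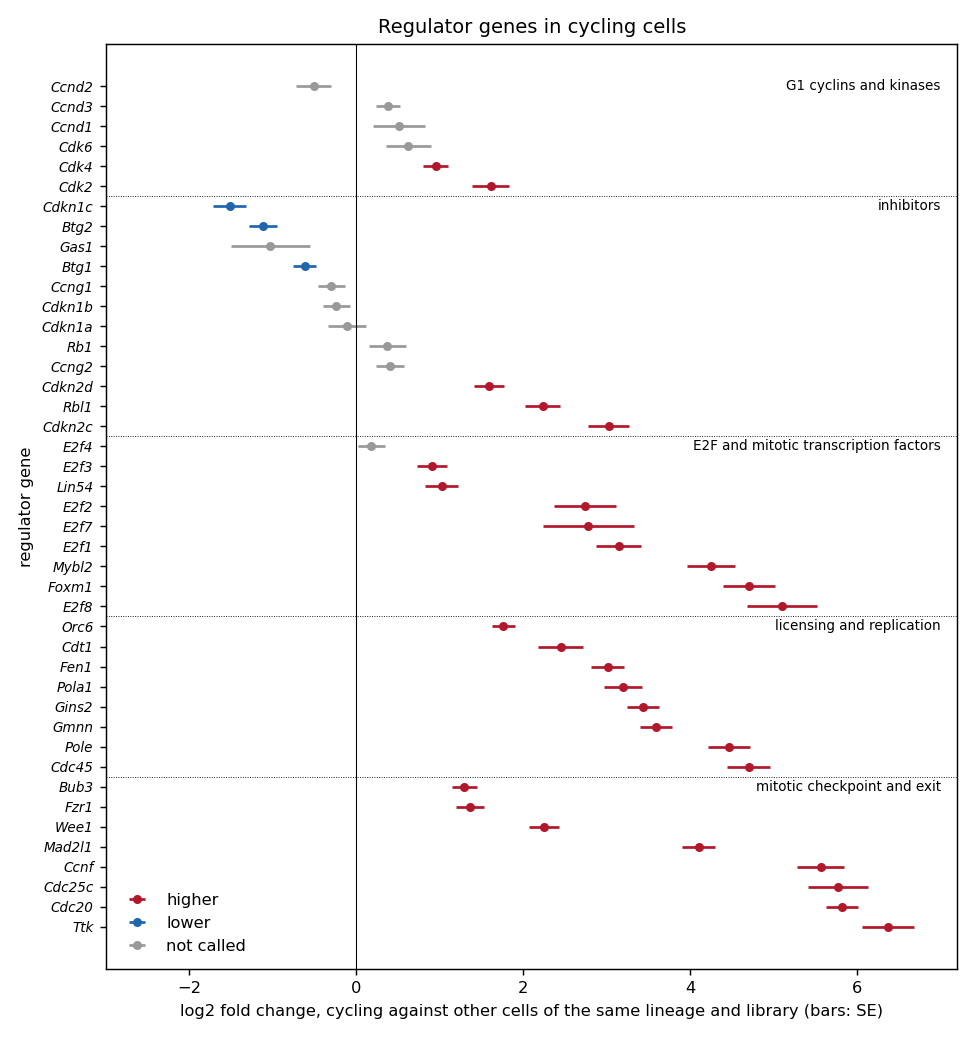
Log2 fold change of 43 regulator genes in cycling against other cells of the same lineage and library, grouped by role; points are edgeR estimates over 9 pairs and bars their SE. Mitotic checkpoint, replication and most E2F genes lie to the right of 0, up to *Ttk* at 6.37, and *Cdkn1c* at -1.52, *Btg2* at -1.12 and *Btg1* at -0.62 are the genes called lower.

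Among themselves the members varied together over the 16 sums of library and lineage, which share libraries and depth. The Pearson correlation of a member's log2 CPM with the mean of the other 35 members ranged from 0.843 for *Mcm4* to 0.997 for *Ccna2*, cyclin A2. *Mcm4*, *Hells* (0.857), *Tyms* (0.888) and *Cdca3* (0.893) were the lowest. Sums of haematopoietic-like and erythroid-like cells, the highest for nearly every member, weigh on all of these values. The range over all genes was not set beside them, so it is not read as a trait of the members. The stromal-like levels of *Mcm4*, 10.4, 13.9 and 14.1 CPM, were above all osteoblast-like and chondrocyte-like values and within the range of the endothelial-like ones. Of 5961 genes outside both lists with a mean of at least 20 CPM, those with the pattern most like the mean of the members were *Esco2* (r = 0.980), *Smc4* (0.978), *Lbr* (0.978), *Prc1* (0.977) and *Kif22* (0.976). *Smc4*, a condensin subunit, was at a mean of 35.0 CPM in stromal-like, 72.7 in endothelial-like and 322 in haematopoietic-like cells and at 751 in the erythroid-like sum.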

How the data were processed

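The authors trimmed reads with fastp 0.20, ran STARsolo (STAR 2.7.3a) on mm10, with Gencode M23 genes plus the reporter, and deposited UMI counts of every whitelist barcode, neither normalized nor filtered for cells; bcl2fastq and Cell Ranger are also named in the submitters' notes. Cells needed 1500 genes or more in the metaphyseal libraries and 1000 in the other, with mitochondrial UMIs of up to 15% and ribosomal UMIs of up to 30%. Genes had to be present in over 10 cells. No test against empty droplets was applied here. Doublets called by Scrublet (scanpy 1.11.5) were kept.

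The lineage gate scored 51 markers in 8 lists (mural and fibroblast lists were added to catch other cells) as log2 of CP10k plus 1 above near-empty barcodes (10 to 100 UMIs), scaled by the 90th percentile and capped, and needed 2 markers and a lead of 0.05. Its thresholds were set after marker values and cell numbers were seen. Cell-cycle members, lists and markers were chosen with earlier results of these data known. Named genes are the 36 members, 48 regulators and the 5 genes most like the members.

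Sums of at least 20 cells were tested in edgeR 4.0.16 (R 4.3.3; TMM, filterByExpr, glmQLFTest, adjusted p under 0.05) with the library as a block. Deviations of sums of the same library from the lineage means were correlated in all 30 pairs (0.104 to 0.647), so sums were taken as paired by library, which comes from their shared suspension. DESeq2 1.42.0 was an alternative. Log2 fold changes are lineage minus stromal-like. Intervals are exact at the 95% level, Poisson or Clopper-Pearson, and cover counting error only. On simulated data, 200, 198, 200, 196 and 104 of 200 genes changed 4-fold were found for osteoblast-, chondrocyte-, endothelial-, haematopoietic- and erythroid-like cells, and 196 of 200 changed 2-fold for cycling cells. The simulation had a fixed spread, the same mean profile in all lineages, no library effect and no changed genes of very low count. Its recovery does not carry over to members with few UMIs or a wider spread. Gene positions were checked in Gencode M21 of the same build.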

Additional observations from a re-analysis of the deposited data

Results flagged for a closer look

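For the motor gene *Kif11* and the spindle gene *Nusap1*, chondrocyte-like cells differed from stromal-like cells in opposite directions in the metaphyseal group and in the *Pdgfra-GFP* library, although the joint test called both higher. The ratio of chondrocyte-like to stromal-like TMM-scaled CPM was 0.412 and 0.895 in metaphyseal 1 and 2 and 4.32 in the *Pdgfra-GFP* library for *Kif11*. For *Nusap1* it was 0.907, 0 and 5.35. The metaphyseal chondrocyte-like sums held 1 and 1 UMIs of *Kif11* and 3 and 0 of *Nusap1*, against 67 and 192 in the *Pdgfra-GFP* library, so that both metaphyseal levels are at or under the floor of 3 UMIs. The difference between the groups was not tested. The sort, the dissection and the number of cells differ between these groups and cannot be told apart.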

How the results depend on the processing

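Of 172 recomputed counts, shares and balances, 147 stayed within the limits set for a change, 25 moved and none reversed, and of 2090 recomputed single-gene values 104 fell below the threshold and 2 reversed. Without the *Pdgfra-GFP* library, *Kif11* and *Nusap1* in chondrocyte-like cells turned to -0.88 and -0.61, the low ends of ranges that reach 1.91 and 2.19 when other libraries are left out. Members called ranged, when libraries were left out in turn, from 5 to 20 in osteoblast-like cells (15 in all libraries) and from 13 to 26 in chondrocyte-like cells (30). The calls over all genes change with the libraries too and were not counted in these refits. Without TMM, an alternative chosen after seeing the data, 8 were called in osteoblast-like cells. Without the replicate block, that is ignoring the pairing by library, the 5 comparisons gave 10, 25, 30, 36 and 36 calls and the regulators 32. Shares of all genes are not given for this setting either, so these counts cannot be set against a background. Cycling shares depend on the depth and on the threshold, but the mean of stromal-like cells was the lowest and that of erythroid-like cells the highest in the settings listed. With at least 2 members, they were 5.94% stromal-like, 7.33% osteoblast-like, 12.8% chondrocyte-like and 18.0% endothelial-like. With at least 4, they were 0.888% stromal-like and 8.16% endothelial-like. Without thinning, they were 7.03%, 19.1%, 33.3%, 23.7%, 52.4% and 90.7% in the order stromal-, osteoblast-, chondrocyte-, endothelial-, haematopoietic- and erythroid-like, so that chondrocyte-like cells then exceeded endothelial-like ones. Thinned to 1000 UMIs, the first 5 of these were 0.807%, 2.56%, 3.37%, 7.58% and 35.5%. A stricter gate gave 0.96% stromal-like, and a minimum of 1000 genes in all libraries gave 31.9% haematopoietic-like and an S share of member UMIs of 30.8% in erythroid-like cells. Sums of thinned cells gave 10 called regulators, with fewer genes above the filter and no share of all genes beside them. Genes of low counts in the metaphyseal chondrocyte-like and erythroid-like sums are limited by depth.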

Other observations

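Outside the 6 lineages, 2 further groups of cells cycled at rates near or above those of endothelial-like cells. Cells gated by the mural markers (*Rgs5*, *Acta2*, *Myh11*, *Notch3* and *Cspg4*, genes of pericytes and smooth muscle) were cycling in 5 of 30 (16.7%, 5.64 to 34.7), 3 of 30 (10.0%, 2.11 to 26.5) and 42 of 264 cells (15.9%, 11.7 to 20.9). All 8 cycling cells of the metaphyseal libraries passed on G2/M genes only. S genes gave 15.6%, 29.1% and 36.8% of their member UMIs. Of these markers, *Cspg4* was also at 197, 177 and 169 raw CPM in chondrocyte-like cells and *Notch3* at 126, 145 and 94.6 in stromal-like cells. Marker levels within the mural gate were not measured, so the shares are those of the gate and not of a proven cell type.

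Ungated cells, in which no list led by enough, were cycling in 13 of 96 (13.5%, 7.41 to 22), 9 of 71 (12.7%, 5.96 to 22.7) and 135 of 1524 cells (8.86%, 7.48 to 10.4), and held 20.6% of the cycling cells of the *Pdgfra-GFP* library. Among them, cells tied between the stromal and osteoblast lists were cycling in 6 of 27 (22.2%, 8.62 to 42.3), 1 of 30 (3.33%, 0.0844 to 17.2) and 29 of 380 cells (7.63%, 5.17 to 10.8), above the stromal-like share of the same library in each. In the *Pdgfra-GFP* library that interval was above those of stromal-like (1.26 to 2.0) and osteoblast-like cells (2.02 to 3.63). No test was run on these shares.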
